A study of Mus musculus with 6 samples.

Results

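Ribosomal protein genes encode the proteins of the cytosolic ribosome. They were chosen by symbol among protein-coding genes of the mm10 annotation: Rpl or Rps followed by a digit, with Rplp0, Rplp1, Rplp2 and Rpsa, leaving out the Rps6k kinases, Rps19bp1 and names containing -ps. The rule found 85 of the 52636 genes in the count tables, of which 33 carry an Rps symbol and 52 an Rpl symbol, and it used no measured value. Transcripts were measured by RNA sequencing in the parotid, a salivary gland whose acinar cells export enzymes such as amylase, in mice of the inbred FVB strain, all labelled with an age of 28 days. The irradiated group held 3 samples of mice given 1 radiation dose of 5 Gy, and the untreated group held 3 samples of the same strain and age. The text naming the dose stands on all 6 samples and was applied to the irradiated group alone, and the labels give neither the time after radiation nor whether each sample came from a separate animal, so the spread behind each p-value is that between samples and may be technical.

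The cytosolic ribosome is built from a small subunit, which reads the messenger RNA, and a large subunit, which joins amino acids. Its proteins are made in matched amounts, and many of their messengers begin with a tract of C and U bases, the terminal oligopyrimidine tract, through which the growth kinase mTOR and the protein LARP1 set their translation and stability. In secretory glands this machinery makes the exported proteins. Some ribosomal proteins, among them Rpl5 and Rpl11, also bind the p53 inhibitor Mdm2 when ribosome assembly is disturbed. In bulk tissue, fewer cells of a type and less RNA per cell cannot be told apart.

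Counts in genes ranged from 7108359 to 14454646 in irradiated libraries and from 12722189 to 15036193 in untreated ones. The summed level of 10 acinar markers was 362988 to 459219 CPM, gene counts scaled to the size of each library, in irradiated glands. In untreated glands it was 400757 to 480012 CPM. Most of this sum came from Bpifa2 and Amy1, and Cel was at 0 in irradiated replicate 1 and untreated replicate 2. Prol1, also on the list, stood at 442.4 CPM in irradiated replicate 2 and at 32.8 to 40.9 CPM elsewhere. Irradiated replicate 2 stood apart: it had the lowest depth, the share of unaligned reads was 10.01%, compared with 3.75% to 4.33% elsewhere, 18.4% aligned to more than 1 place against 13.3% to 16.0%, and 0.00153% were set aside for low alignment quality against 1.85% to 2.14%. Whether it was aligned and counted with the same settings as the others is not given in the sources used here, so its values may not be fully comparable with theirs. Reads in 291 rows named as ribosomal protein pseudogenes made up 0.0625% of its gene counts, against 0.0975% and 0.105% in the other irradiated libraries and 0.119% to 0.124% in untreated ones. Ribosomal protein genes have many processed pseudogenes, and in the median member 47.4% of the 50-base windows of the transcript also stood in an annotated transcript of another gene. Reads with more than 1 place stand in a row of their own and count for no gene, so the level of a member with many shared windows is uncertain. The main results over all members are also given without this library.

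A RefSeq promoter entry (build GRCm38.p6) was found by symbol for 65 of the 85 genes. Each entry spans 250 bases before to 50 after the start annotated there. These starts were not checked against the gene starts of the mm10 annotation, and some lie away from them. Windows from 60 bases before to 15 after the start are shown for the pair of genes past the test threshold, Rps21 and Rpl28, and for Rps27 and Rps27l, which are compared below as paralogs. Capitals mark the longest run of C or T that touches the 10 bases on either side of the start, cut at the end of the window. The windows are chr2:180257319-180257393 and chr7:4792905-4792979 on the plus strand, chr3:90213634-90213708 on the minus strand and chr9:66946026-66946100 on the plus strand. Rps21 and Rps27l each have another annotated start, which is not shown.
Rps21: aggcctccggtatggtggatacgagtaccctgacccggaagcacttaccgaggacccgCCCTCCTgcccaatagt
Rpl28: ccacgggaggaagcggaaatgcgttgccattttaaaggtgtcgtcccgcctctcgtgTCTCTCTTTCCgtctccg
Rps27: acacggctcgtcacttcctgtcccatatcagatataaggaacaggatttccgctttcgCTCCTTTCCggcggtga
Rps27l: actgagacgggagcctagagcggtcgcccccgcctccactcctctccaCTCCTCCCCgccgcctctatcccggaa
The run was 7 bases long in Rps21, 11 in Rpl28, and 9 in both Rps27 and Rps27l. A run of at least 8 such bases on the sense strand was found in 29 of the 65 genes, 44.6%, against 15.7% of 26960 other genes with an entry. Runs wholly before the annotated start, as in Rps27l, were counted too. The 29 genes are therefore not shown to have messengers that begin with the tract. On both strands of the whole 300-base entry, the letters CCGGAAG, known from binding sites of ETS factors, were found in 40% of the 65 genes against 9.86% of the others. AAGATGGC, known from YY1 sites, was found in 9.23% against 3.18%. The end of the first motif and the start of the second share the letters AAG, so they can overlap. Members with the run had a median log2 fold change of -0.21 and those without it -0.25.

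Irradiated glands were set against untreated ones to ask how transcript levels differ after radiation. Most ribosomal protein genes were slightly lower in irradiated glands, with a median log2 fold change of -0.24 over the 82 members tested, against -0.01 over all 12885 genes tested. Rps21 and Rpl28 fell, no member rose and the rest did not pass, by the quasi-likelihood test of edgeR adjusted over all genes tested (Benjamini-Hochberg). Over all genes tested 0.349% were called lower and 0.652% higher, and among other genes of like transcript length, defined below, 0.719% lower and 0.479% higher. The count of 2 members moved with most settings and was 0 after a correction for length and GC content. The other 3 members, Rpl29, Rpl39l and Rpl10l, had too few counts to be tested. The fold change was negative for 75 of the 82, against 50.9% of all genes tested and 70.2% of genes of like length. An unadjusted edgeR p under 0.05 was found for 36, against 15% of all genes and 19.5% of genes of like length. These shares are not matched for level. The median level was 148.7 CPM for members, 8.49 CPM for all genes and 7.34 CPM for genes of like length.

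Relative to the untreated mean of each gene, the median member stood at -0.24, -0.31 and -0.20 on the log2 scale in irradiated replicates 1, 2 and 3, and at -0.05, 0.02 and 0.05 in untreated replicates 1, 2 and 3. All irradiated medians were below all untreated ones. Members scattered most in irradiated replicate 2, where 9 of 82 lay more than 0.5 on the log2 scale from the mean of the other irradiated libraries, against 3 in each of the other irradiated libraries and 0 to 1 in untreated ones. Of these 9, Rpl34, Rpl17, Rps18, Rpl23a, Rpl24 and Rpl3l were higher there and Rps27rt, Rpl21 and Rpl37a lower, named after their values were seen. Rpl24 had only 12, 19 and 16 counts in irradiated replicates 1, 2 and 3. Rpl3l stood at 1.46, 1.68 and 0.52 CPM in them, so its distance came from the low replicate 3. With scaling by library totals alone the median of all genes was 0.14, with 260 genes called higher and 22 lower against 84 and 45, and the median of the members was -0.0958. Without irradiated replicate 2 the median of the members was -0.22, and 79 of 82 were negative. Fewer were negative with library totals, 61 of 82, with a correction for length, 64, and with one for length and GC content, 63.

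**Figure D1:**
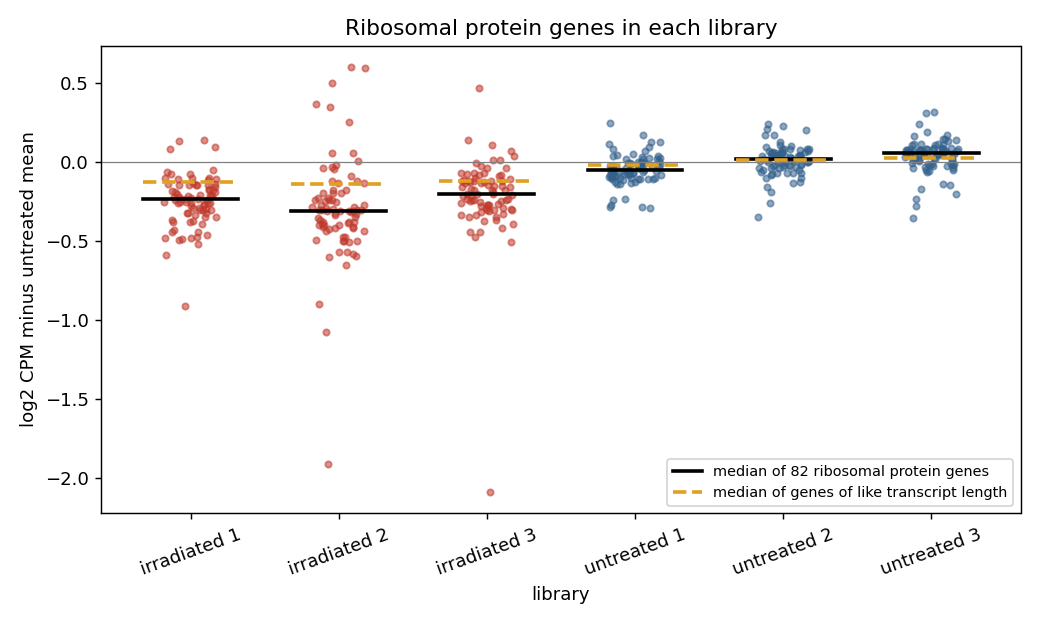
Log2 CPM of each of 82 ribosomal protein genes minus its untreated mean, for each library (points), with the median of the members (black line) and of genes of like transcript length (dashed line). Irradiated medians lie between -0.31 and -0.20 and untreated ones between -0.05 and 0.05, and the members scatter most widely in irradiated replicate 2.

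Every irradiated library was below every untreated one for 58 of 82 members, and no member showed the opposite. Among all genes tested 10.6% were below in this way, and among genes of like length 20.5%. The opposite held for 10.6% of all genes and 5.87% of genes of like length. Members are abundant: their median level was 148.7 CPM, against 7.34 CPM for genes of like length, and these shares are not matched for level. Without irradiated replicate 2 the count was 66 of 82, against 16% of all genes and 27.6% of genes of like length. After correcting each library for length and GC content it was 20 of 82, against 9.44% of all genes and 8.75% of genes of like length, and 3 members then stood above.

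Genes with short transcripts tended to be lower, and ribosomal protein transcripts are short, with a median of 941.5 bases for the longest protein-coding transcript against 3061 bases for all genes tested. Genes of like length were the 2504 other protein-coding genes between the 10th and the 90th percentile of the members, 494.5 to 1921 bases. Their median log2 fold change was -0.14, so the members lay lower by 0.10, and 62 of 82 members lay below the median of these genes. The members sit toward the short end of that range. In the shortest of 10 equal bins of the other protein-coding genes, 204 to 1355 bases, which covers 67 of the members, the medians were -0.24 for members and -0.19 for 1178 other genes. With the length and GC correction the median was -0.07 for members and -0.02 for genes of like length, and 0 members were called, against 0.877% of all genes. The members thus differed less from other short transcripts than from all genes.

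**Figure D2:**
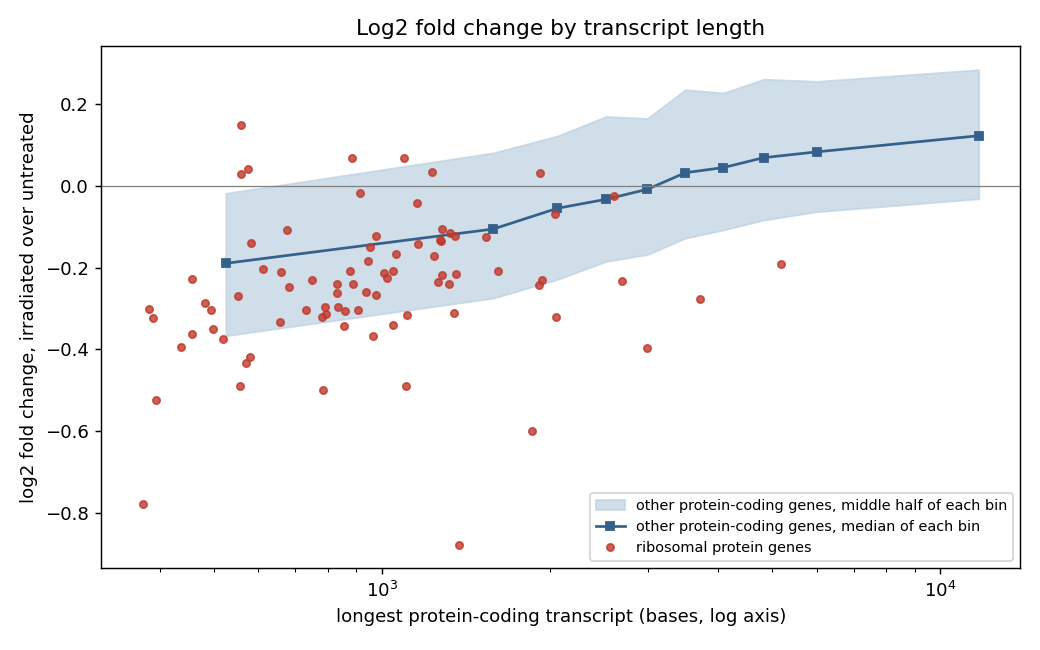
Log2 fold change (irradiated over untreated) against the longest protein-coding transcript (bases, log axis), for 82 ribosomal protein genes (red points) and for other protein-coding genes in 10 bins of equal number (squares, medians; band, middle of each bin from the 25th to the 75th percentile). Bin medians run from -0.19 in the shortest to 0.12 in the longest genes, and most ribosomal protein genes lie below the line.

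The 33 small-subunit and the 49 tested large-subunit members had similar medians, -0.25 and -0.23. The medians were -0.10 and -0.06 with the length and GC correction. One member of each passed, and every irradiated library was below every untreated one for 26 of 33 small-subunit and 32 of 49 large-subunit members, against 10.6% of all genes and 20.5% of genes of like length. All members together held 1.31% ± 0.0702 of gene counts in irradiated and 1.40% ± 0.0824 in untreated libraries (SD, n = 3 each). The irradiated values were 1.31%, 1.39% and 1.25%, the lowest untreated value was 1.35%, and the shares overlapped between the groups. The ratio of small-subunit to large-subunit counts was 0.716, 0.725 and 0.710 in irradiated and 0.720, 0.732 and 0.732 in untreated libraries, so irradiated replicate 2 lay inside the untreated range.

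**Figure D3:**
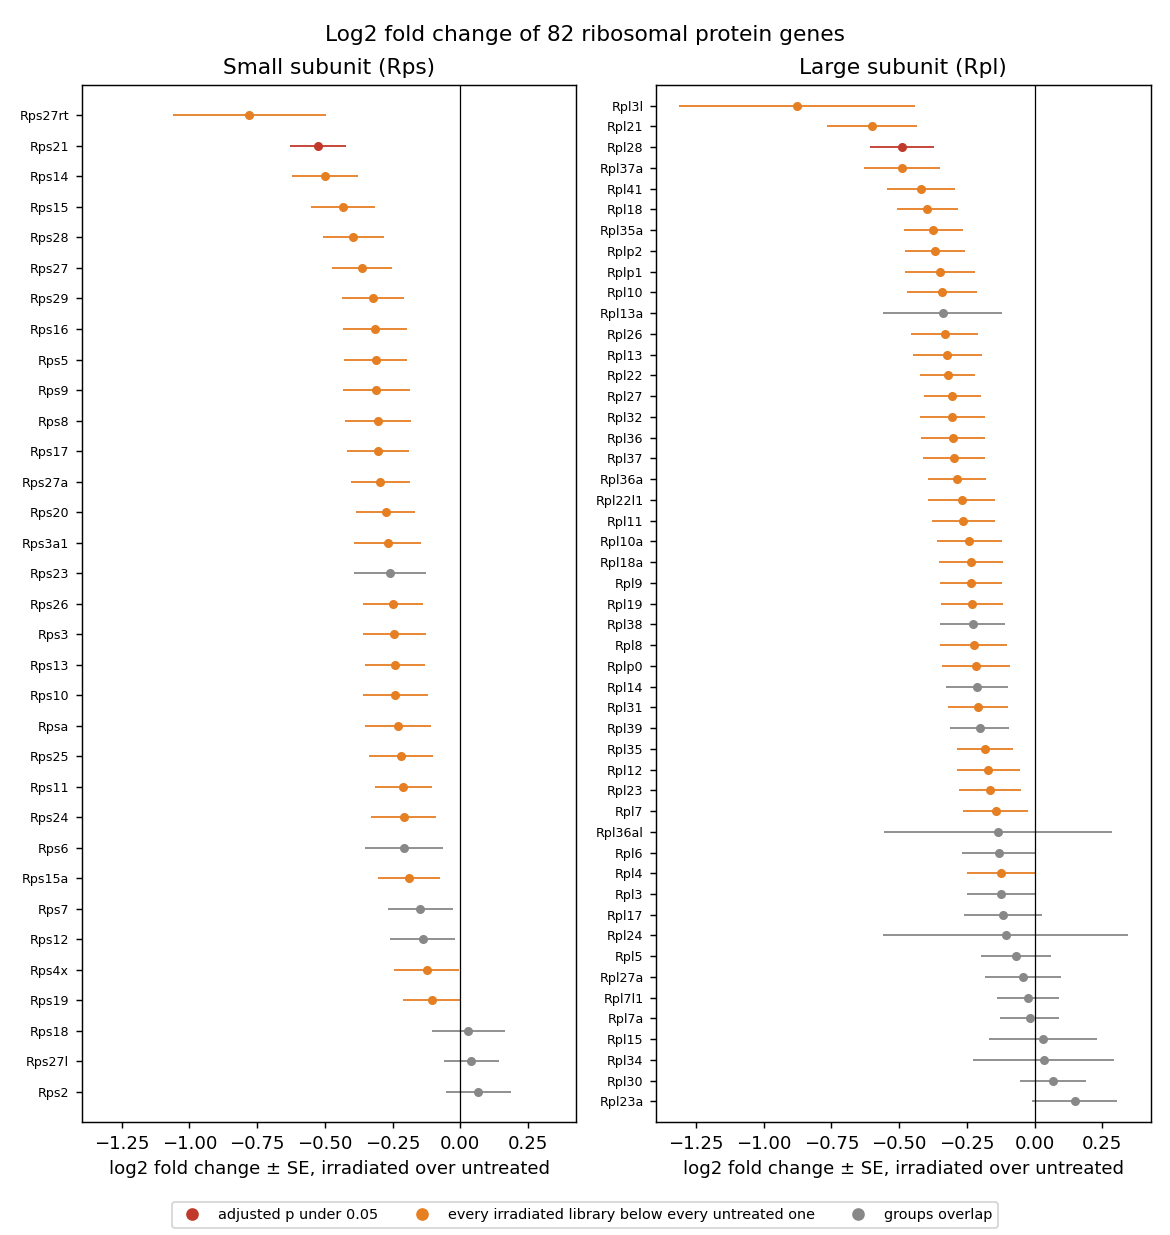
Log2 fold change ± SE (irradiated over untreated) of the 33 small-subunit and 49 large-subunit genes tested, in order. Rps21 and Rpl28 (red) had an adjusted p under 0.05, orange marks genes with every irradiated library below every untreated one, and grey marks genes whose groups overlap.

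Among small-subunit proteins, Rps21 (ENSMUSG00000039001; chr2:180257377-180258445, mm10), a component of the eukaryotic small subunit without a bacterial counterpart, stood at 73.5, 71.1 and 76.1 CPM in irradiated libraries and at 97.8, 105.3 and 114.4 CPM in untreated ones. All irradiated values were below all untreated values. Its log2 fold change was -0.52 (SE 0.10), a ratio of 0.695, with an edgeR adjusted p of 0.0175. The edgeR call was lost with the length and GC correction, where the log2 fold change was -0.23 (adjusted p = 0.436), and without irradiated replicate 1, untreated replicate 2 or untreated replicate 3 (edgeR adjusted p = 0.119, 0.0796 and 0.0825).

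Rps14, a protein of the small subunit's platform, missed the threshold narrowly. It stood at 173.3, 159.8 and 176.1 CPM in irradiated and 217.4, 239.2 and 263.4 CPM in untreated libraries, with a log2 fold change of -0.50 (SE 0.12) and an edgeR adjusted p of 0.0503. Without irradiated replicate 2 the edgeR adjusted p was 0.0475. Rps15, a protein near the decoding site, had 175.2, 167.2 and 183.2 CPM in irradiated and 217.8, 242.7 and 249.1 CPM in untreated libraries, a log2 fold change of -0.43 (SE 0.12). Rps28, which lines the messenger's exit path, had 76.4, 70.2 and 81.4 CPM in irradiated and 92.2, 94.3 and 113.3 CPM in untreated libraries, a log2 fold change of -0.39 (SE 0.11). For these 3 genes no irradiated value reached an untreated one, and Rps15 and Rps28 had edgeR adjusted p values of 0.0753 and 0.0881. With the length and GC correction the log2 fold changes of Rps14, Rps15 and Rps28 were -0.27, -0.12 and -0.09 (edgeR adjusted p = 0.403, 0.765 and 0.826).

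Of 14 members of the small subunit's head, 0 passed, 12 had every irradiated library below every untreated one, against 10.6% of all genes and 20.5% of genes of like length, and the median was -0.29, or -0.09 with the length and GC correction. Of 6 proteins along the messenger's channel 0 passed and the median was -0.25, or -0.11 with the correction, with Rps2, at the entry, at 0.07. A list of 9 of the genes mutated in human Diamond-Blackfan anaemia, an inherited failure of red cell production, had a median of -0.24, or -0.06 with the correction, and 0 passed. The list does not hold all genes known for this disease.

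Among large-subunit proteins, Rpl28 (ENSMUSG00000030432; chr7:4792874-4795066, mm10), a large-subunit protein of animals that budding yeast lacks, stood at 128.6, 115.5 and 143.7 CPM in irradiated libraries and at 184.9, 186.0 and 173.6 CPM in untreated ones. The groups did not overlap. Its log2 fold change was -0.49 (SE 0.12), a ratio of 0.712, with an edgeR adjusted p of 0.0497. With the length and GC correction it was -0.34 (edgeR adjusted p = 0.263), and leaving out any single library other than irradiated replicate 3 ended the call, at edgeR adjusted p values of 0.0643 to 0.202 (0.0643 without irradiated replicate 2).

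**Figure D4:**
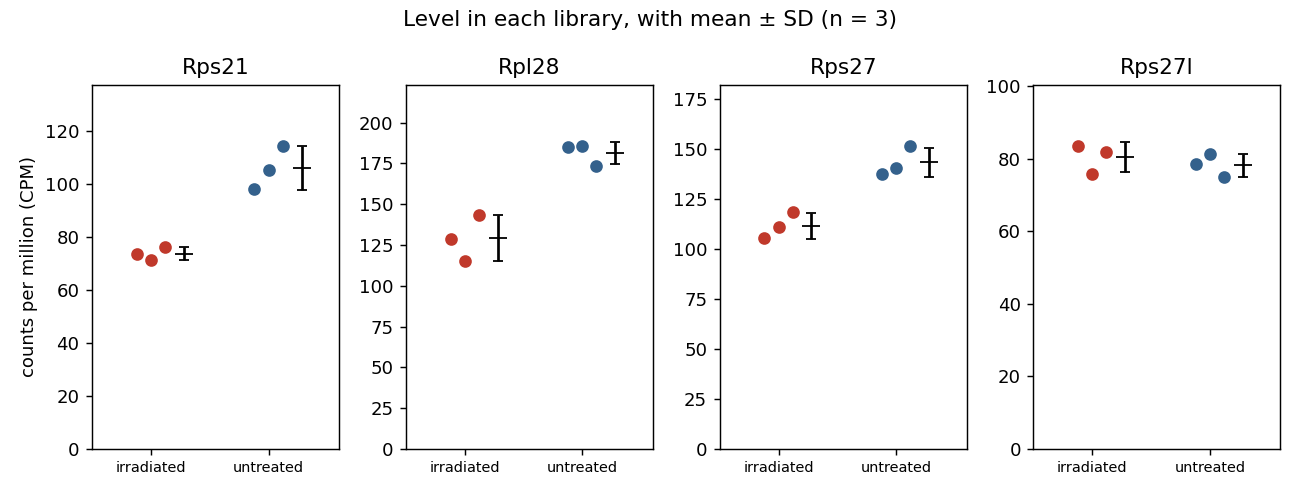
Level in CPM of Rps21, Rpl28, Rps27 and Rps27l in each irradiated (red) and untreated (blue) library, with mean ± SD (n = 3 each). The groups do not overlap for the first 3 genes and overlap for Rps27l.

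A further 4 large-subunit members had small p values without passing. Rpl41, which encodes one of the shortest known proteins, had 265.1, 233.7 and 247.4 CPM in irradiated and 325.8, 373.3 and 298.6 CPM in untreated libraries, a log2 fold change of -0.42 (SE 0.13). Rpl37a, a zinc-binding protein, had 104.3, 71.4 and 108.8 CPM in irradiated and 126.6, 129.8 and 143.4 CPM in untreated libraries, a log2 fold change of -0.49 that was -0.32 without irradiated replicate 2. Rpl18 and Rpl35a, the last of these mutated in human Diamond-Blackfan anaemia, had log2 fold changes of -0.40 and -0.37. Their edgeR adjusted p values lay between 0.0925 and 0.108, and for each of the 4 no irradiated value reached an untreated one. Rpl41, Rpl37a and Rpl35a had log2 fold changes of -0.15, -0.29 and -0.15 with the length and GC correction, and Rpl18 one of -0.40.

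The lateral stalk, made of Rplp0, Rplp1 and Rplp2 on a base with Rpl12, recruits the elongation factors. For all 4 the irradiated libraries lay below the untreated ones without overlap, as for 10.6% of all genes and 20.5% of genes of like length, and 0 passed. Rplp2 stood at 134.9 ± 5.12 CPM in irradiated and 174.1 ± 5.21 CPM in untreated glands (SD, n = 3 each), with a log2 fold change of -0.37 (SE 0.11, edgeR adjusted p = 0.108). Rplp1, Rplp0 and Rpl12 had log2 fold changes of -0.35, -0.22 and -0.17. The 4 lay between -0.18 and -0.04 with the length and GC correction.

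Rpl5 and Rpl11, which form a particle with the 5S ribosomal RNA and bind Mdm2, did not pass the test. Rpl5 had 347.2, 333.9 and 366.2 CPM in irradiated and 397.0, 392.4 and 308.8 CPM in untreated libraries. The groups overlapped, the log2 fold change was -0.07 (SE 0.13) and 0.0860 with scaling by library totals, and 93.8% of its 50-base windows were shared with other genes. Rpl11 had 174.4, 157.4 and 163.1 CPM in irradiated and 183.7, 205.4 and 205.0 CPM in untreated libraries, a log2 fold change of -0.26 (SE 0.12, edgeR adjusted p = 0.284) that was -0.06 with the length and GC correction. Of 9 listed ribosomal proteins known to bind Mdm2, 0 passed and the median was -0.24, or -0.07 with the correction.

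Rpl23a, a protein beside the exit of the peptide tunnel, had the highest log2 fold change, 0.15 (SE 0.16). It stood at 30.6, 45.6 and 32.6 CPM in irradiated and 27.5, 37.8 and 32.5 CPM in untreated libraries. The groups overlapped, and without irradiated replicate 2, the highest library, the value was -0.04. Of 8 proteins around the tunnel 0 passed and the median was -0.19, or -0.02 with the length and GC correction.

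Some members are paralogs with their own expression pattern. Rps27l, which p53 is known to induce in human cells, stood at 83.6, 75.7 and 81.8 CPM in irradiated and 78.4, 81.1 and 74.9 CPM in untreated libraries, and the groups overlapped, with a log2 fold change of 0.04 (SE 0.10). Rps27, its partner and a zinc-finger protein of the small subunit, stood at 105.2, 110.7 and 118.5 CPM in irradiated and 137.6, 140.6 and 151.6 CPM in untreated libraries, with a log2 fold change of -0.36 (SE 0.11, edgeR adjusted p = 0.112). No irradiated value of Rps27 reached an untreated one. With the length and GC correction the log2 fold changes were 0.24 for Rps27l and -0.07 for Rps27. Windows shared with other genes made up 13.7% of Rps27l and 63.1% of Rps27.

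The count ratio of Rps27l to Rps27 was 0.794, 0.684 and 0.691 in irradiated and 0.570, 0.577 and 0.494 in untreated libraries. It was higher in all irradiated libraries, by 0.40 on the log2 scale (SE 0.10), and an exact two-sided permutation test gave p = 0.1, the smallest that 3 against 3 libraries allow, and 0.3 after adjustment over the 3 pairs with enough counts. The other pairs were Rpl22l1 with Rpl22, where the ratio averaged 0.212 ± 0.00790 in irradiated and 0.204 ± 0.0175 in untreated libraries (SD, n = 3 each, exact p = 0.7), and Rpl7l1 with Rpl7, at 0.0837 ± 0.00932 in irradiated and 0.0768 ± 0.00971 in untreated libraries (exact p = 0.4). The log2 fold change of Rpl22l1 itself was -0.27 and that of Rpl7l1, a factor of large-subunit assembly, -0.02, both short of the threshold.

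Rpl3l, a form of Rpl3 made in heart and skeletal muscle, had the lowest log2 fold change, -0.88 (SE 0.44, edgeR adjusted p = 0.355). Its counts were 22, 14 and 6 in irradiated and 22, 29 and 35 in untreated libraries, levels of 1.46, 1.68 and 0.52 CPM in irradiated and 1.81, 2.54 and 2.33 CPM in untreated libraries. The summed level of 9 skeletal muscle markers was 454.8, 525.2 and 175.5 CPM in irradiated and 526.6, 639.2 and 659.5 CPM in untreated libraries, all 9 had negative fold changes, and irradiated replicate 3 was lowest in both. Without that library the log2 fold change of Rpl3l was -0.51. The part of muscle tissue in the value of Rpl3l was not tested.

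Rps27rt, an intronless copy of Rps27, had 6.66, 2.41 and 6.39 CPM in irradiated and 10.2, 7.96 and 9.21 CPM in untreated libraries, a log2 fold change of -0.78 (SE 0.28, edgeR adjusted p = 0.21), and 91.1% of its windows were shared. Without irradiated replicate 2 its log2 fold change was -0.48. Of the testis forms, Rpl10l had 0 counts in all libraries, where 3 counts per library would be 0.200 to 0.422 CPM, and Rpl39l had 1 count in irradiated replicate 2, 2 counts in untreated replicate 2 and none elsewhere. Rpl36al, close in sequence to Rpl36a, had 1.53, 1.08 and 1.38 CPM in irradiated and 1.48, 1.14 and 1.80 CPM in untreated libraries, and the groups overlapped.

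Levels between genes are compared per kilobase of the longest protein-coding transcript. By the mean over all 6 libraries Rplp1, Rpl41, Rplp0, Rpl10 and Rpl4 were highest, at 524, 427.4, 385.6, 360.0 and 367.0 CPM per kilobase in irradiated and 667.7, 571.5, 447.8, 456.2 and 400.1 CPM per kilobase in untreated glands, where Rps15, at 413.6 CPM per kilobase, stood above Rpl4. Rpl36al, Rpl3l, Rpl24, Rpl13a and Rpl7l1 were lowest of those tested by the same mean, at 1.04, 0.889, 2.20, 4.75 and 10.3 CPM per kilobase in irradiated and 1.15, 1.62, 2.26, 6.03 and 10.4 CPM per kilobase in untreated glands. Rpl24 and Rpl13a belong to the core of the large subunit, and 47.0% and 35.4% of their exon bases overlapped an exon of another gene on the same strand, where reads are ambiguous. Rpl29, another core member, had 14, 1 and 8 counts in irradiated and 8, 1 and 2 in untreated libraries. How much these low values owe to read assignment was not tested.

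Across the 82 members, the log2 fold change had a Spearman correlation of 0.31 with transcript length, -0.23 with GC content and 0.14 with the share of windows in other genes. These describe genes that share the same libraries. Members with under 50% of windows shared had a median of -0.24, as did those with more. With the length and GC correction the medians were -0.11 and -0.06. Every irradiated library was below every untreated one for 34 of 44 and 24 of 38, against 10.6% of all genes and 20.5% of genes of like length. Both called members had under 50% shared. The difference between these groups was not tested.

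Other genes of translation were read from lists. Of 22 other genes, mostly translation factors whose messengers carry such a tract, 0 passed. Their transcripts had a median of 1829 bases. The fold change was negative for 20, against 50.9% of all genes tested and 70.2% of genes of like length to the members, and the median was -0.20. It was -0.13 both with the length and GC correction and without irradiated replicate 2. Fau, whose product releases a further small-subunit protein, had 89.6, 99.1 and 97.8 CPM in irradiated and 132.4, 112.4 and 147.3 CPM in untreated libraries, a log2 fold change of -0.45 (SE 0.12, edgeR adjusted p = 0.0660), or -0.19 with the length and GC correction (edgeR adjusted p = 0.591). Eef1d, which recharges the elongation factor eEF1A, had a log2 fold change of -0.38 (edgeR adjusted p = 0.0930).

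Of 44 genes of ribosomal RNA synthesis and processing 1 fell and 43 did not pass, where 0.349% of all genes tested were called lower. The fold change was negative for 23, against 50.9% of all genes tested, and the median was -0.02. The gene that fell was Polr1d, a subunit shared by RNA polymerases I and III, at 31.6, 33.1 and 34.6 CPM in irradiated and 40.7, 53.9 and 52.5 CPM in untreated libraries. Its log2 fold change was -0.57 (SE 0.12, edgeR adjusted p = 0.0266). The call was lost with the length and GC correction (edgeR adjusted p = 0.124) and the length correction (edgeR adjusted p = 0.114). It was also lost with library totals, without robust shrinkage and with a replicate block (edgeR adjusted p = 0.0708, 0.0973 and 0.0646), and with limma-voom (adjusted p = 0.0891). Leaving out irradiated replicate 1, untreated replicate 2 or untreated replicate 3 ended it too (edgeR adjusted p = 0.142, 0.12 and 0.0764). It held with DESeq2, RLE and upper-quartile scaling, no count filter, and without any of the other libraries. Of 28 genes of subunit assembly and export 0 passed, with 14 negative, against 50.9% of all genes tested, and a median of -0.0026. Eif6, which keeps large subunits from joining too early, had a log2 fold change of -0.51 and Sbds, which helps to release it, one of -0.40, with edgeR adjusted p values of 0.0623 and 0.131.

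Of 14 tested genes of the mTOR and LARP1 pathway 0 passed and the median was 0.06. Sesn2 and Sesn1, stress-induced brakes on mTOR, had log2 fold changes of 0.97 (SE 0.28) and 0.51 (SE 0.16), with edgeR adjusted p values of 0.104 and 0.123. Without irradiated replicate 3 the value of Sesn1 was 0.29. Sesn2 stood at 6.79, 9.86 and 7.51 CPM in irradiated and 6.01, 3.85 and 2.47 CPM in untreated libraries, and the groups did not overlap.

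The 77 tested proteins of the mitochondrial ribosome had a median log2 fold change of -0.15, and the 35 tested nuclear subunits of respiratory complex I, also short transcripts, one of -0.21. No mitochondrial ribosomal protein passed, and in complex I Ndufa2 fell (log2 fold change -0.54, edgeR adjusted p = 0.0326). Called lower were 0.349% of all genes tested and 0.719% of genes of like length. The call of Ndufa2 was lost with the length and GC correction, where 0 complex I subunits passed. With the length and GC correction the medians were -0.05 and -0.03, against -0.07 for the cytosolic ribosomal proteins. Every irradiated library was below every untreated one for 18 of 77 mitochondrial ribosomal proteins and 13 of 35 complex I subunits, against 10.6% of all genes and 20.5% of genes of like length. The difference between these sets was not tested.

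Markers of several cell types moved with the groups. The summed level of 10 T cell markers was 37.0 to 50.6 CPM in irradiated and 16.0, 1.92 and 16.0 CPM in untreated libraries. That of 10 B cell markers was 37.4 to 40.5 CPM in irradiated and 26.1, 1.49 and 10.9 CPM in untreated libraries. Untreated replicate 2 was lowest in both. In each list 9 of 10 markers were higher in every irradiated library than in all untreated ones, against 10.6% of all genes tested. The exception among B cell markers was Jchain, at a log2 fold change of -1.38, which did not pass. Of these lists Cd8b1, Cd5, Bank1 and Fcrl1 rose, with log2 fold changes of 2.76, 2.95, 2.32 and 3.10 (edgeR adjusted p = 0.0177, 0.00787, 0.0150 and 0.0268). Called higher were 0.652% of all genes tested. None of the markers was at 0 in every library. In untreated libraries Cd8b1, Cd5 and Fcrl1 stood at 0 to 0.667 CPM, near the level of 3 counts, so the size of their fold changes is uncertain.

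Of 9 tested acinar markers 6 had negative and 3 positive fold changes. Car6, a secreted carbonic anhydrase, fell (log2 fold change -0.79, edgeR adjusted p = 0.0329), where 0.349% of all genes were called lower. For 4 of the markers every irradiated library was below every untreated one, against 10.6% of all genes. With the length and GC correction 0 acinar markers were called. All 8 fibroblast markers had negative fold changes with a median of -0.36, and 0 passed. Their summed level was 970.4 to 1316 CPM in irradiated and 1214 to 1964 CPM in untreated glands, which overlap. Of 4 tested nuclear long noncoding RNAs 0 passed, and the median was -0.54, with a summed level of 1247 to 1979 CPM in irradiated and 1956 to 2382 CPM in untreated glands, which also overlap. Meg3, on that list, was at 0 in every library. The part of these cell types and RNAs in the ribosomal protein values was not tested.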

How the data were processed

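The authors deposited 1 table of raw read counts by Ensembl gene for each library. Per the submitters' processing notes bcl2fastq, HISAT2, HTSeq and the build mm10 were used. The sources used here give no version, annotation release or strand setting, so overlapping genes cannot be separated with certainty. Libraries were made with a stranded total RNA kit, per the labels' protocols. Rows naming no gene held 32.4% to 40.7% of reads and were left out.

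Symbols, coordinates and transcripts came from GENCODE M21 (GRCm38), which matched 52489 of 52636 genes. The test was edgeR 4.0.16 (R 4.3.3), quasi-likelihood with robust shrinkage, TMM scaling and a minimum count of 10 (filterByExpr), on all 6 libraries, with Benjamini-Hochberg adjustment over 12885 genes and a threshold of 0.05. CPM use the TMM factors. A standard error is the log2 fold change over the root of F. The correction for length and GC added a smooth offset per library. The procedure was tested on simulated data. Alternatives included DESeq2 1.42.0, limma-voom 3.58.1, other scalings, no filter, a replicate block and leaving out each library.

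The members and lists were chosen with earlier results of these data known. Named genes are called members, the 10 with the smallest p, the 5 highest and 5 lowest per kilobase, the stalk, 5S and paralog members, the extremes of fold change, and called genes (else 2 with the smallest p) of the translation lists; others were named after their values were seen.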

Additional observations from a re-analysis of the deposited data

How the results depend on the processing

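No member was called higher under any setting run. The 2 calls among ribosomal protein genes became 8 with DESeq2, 6 without a count filter, 3 with library totals, 1 with RLE scaling, and 0 with limma-voom, without robust shrinkage, with the length correction, with the length and GC correction, with the replicate block, with both together, and with irradiated replicate 2 left out and the length and GC correction (chosen after seeing the data). Leaving out 1 library gave 0 to 3. Calls over all genes were 129, and 282 with library totals, 25 with limma-voom, 518 without a count filter, 26 without robust shrinkage, 53 with the replicate block, 73 with the block and the length and GC correction, 76 with irradiated replicate 2 left out and that correction, and 45 to 155 without 1 library. Of calls over all genes, 84 were higher and 45 lower, against 260 and 22 with library totals, which moved the median of all genes to 0.14.

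The members' median, -0.24, became -0.0663 with the length correction, -0.0685 with the length and GC correction, -0.0673 with that and the replicate block, -0.0563 with that correction and irradiated replicate 2 left out, and -0.0958 with library totals; without 1 library it ran from -0.27 to -0.22. Its distance from genes of like length, -0.10, became -0.0453 with the length correction, -0.0489 with the length and GC correction, -0.0490 with that and the block, -0.15 by merged exon length and -0.21 over the full range of member lengths, which reaches 5179 bases; without 1 library it ran from -0.12 to -0.08. The difference in the members' share of counts was -0.0871 percentage points, and -0.221 without the 10 most abundant genes, with a range of -0.124 to -0.0395 without 1 library. The cause of these shifts was not tested.

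Of 26 named members tested, 6 changed sign in 14 values, none of them called. Rpl24 changed sign with the length and GC correction (0.11), the length correction (0.12), library totals (0.0558) and the block with the length and GC correction (0.0776), Rpl4 (0.0213) and Rpl5 (0.0860) with library totals, and Rpl7l1 with library totals (0.12) and upper-quartile scaling (0.00834). Without 1 library, Rpl23a ran from -0.0436 (irradiated replicate 2 left out) to 0.264, Rpl24 from -0.513 to 0.23, Rpl36al from -0.285 to 0.0409 and Rpl7l1 from -0.0898 to 0.0502, and the log2 ratio of Rpl22l1 to Rpl22 from -0.0117 to 0.111. The cause was not tested. Whether replicate numbers pair the libraries is not known. Deviations from the group mean in same-numbered libraries correlated at 0.02, -0.11 and -0.11. With 3 libraries per group these values cannot settle it. The replicate block removed both member calls. Depth limits Rpl3l, Rpl24 and Rpl36al, with counts of 6 to 35.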
